A study of Mus musculus with 21 samples.

Results

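Apical spiral ganglion neurons given a dominant-negative HCN2 channel (DN-HCN2) were compared with apical neurons given a truncated SK3 channel. The comparison took every library of both groups, 7 of the 21 in the series, with 4 of DN-HCN2 and 3 of truncated SK3. Of 21878 genes in the count table, 14968 passed a filter on low counts and were tested. All groups were collected from mouse cochlea at postnatal day 7, and each library held about 50 neurons drawn into a micropipette. The constructs were carried by adeno-associated virus, a mutated HCN2 in one group and the truncated SK3, also described as dominant negative, in the other. Apical control neurons (4 libraries, labelled WT) had received the same kind of virus with EGFP. Basal neurons with DN-HCN2 (3 libraries) and truncated SK3 (3 libraries) gave the same contrast in other libraries. The virus promoter, the share of captured neurons that carried virus and the animals behind each library were not given in the sources used here. Libraries of 1 group are termed biological replicates in the labels. Without the animals of origin, p-values measure only the spread between these libraries, which may be partly technical.

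Spiral ganglion neurons carry signals from cochlear hair cells to the brainstem, and apical neurons serve low sound frequencies. HCN channels open when the membrane is hyperpolarized and carry an inward cation current that speeds return towards threshold. SK channels open when calcium rises inside the cell and carry an outward potassium current that follows bursts of firing. In the first postnatal week of the mouse, before hearing begins, these neurons fire in spontaneous patterned bursts, and the title of the series names genes regulated by such activity. With both constructs side by side, the comparison asks which transcripts distinguish interference with one channel from interference with the other.

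Total counts ranged from 12588322 to 15138780 in the DN-HCN2 libraries and from 10727194 to 13578107 in the truncated SK3 libraries. Levels are given as CPM, counts per 1000000 of a library total scaled by its TMM factor. Spearman correlations across genes were 0.894 to 0.938 within DN-HCN2, 0.904 to 0.941 within truncated SK3 and 0.904 to 0.945 between the groups. Within apical control they were 0.963 to 0.968. The median SD of log2 CPM within a group, over 9944 genes averaging 10 CPM or more, was 0.403 in DN-HCN2, 0.354 in truncated SK3 and 0.217 in control. Libraries of the 2 constructs were therefore about as far from libraries of their own group as from each other. Markers of spiral ganglion neurons, all 20 of which were tested, summed to 15494 to 21511 CPM under DN-HCN2 and 13723 to 17166 CPM under truncated SK3. Markers of Schwann and satellite glia summed to 11428 to 18767 and 13217 to 22453 CPM, so glial transcripts were abundant in both groups. Replicate 1 of DN-HCN2 stood apart in summed supporting cell markers, at 15025 CPM against 5807 to 8648 in the other 6 libraries. By the median over these markers of log2 CPM minus the control mean it was at 0.76. Replicates 2 and 3 of truncated SK3 were higher, at 1.13 and 1.64. In such pooled samples, fewer cells of a type and less RNA per cell cannot be told apart.

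In all, 3 genes passed the test between the constructs in the apex. Gprc5b and Map3k1 were lower under DN-HCN2 than under truncated SK3, and Gm4184 was higher. This is 0.0200% of the genes tested in either direction (0.00668% higher and 0.0134% lower) by edgeR's quasi-likelihood test at a false discovery rate of 0.05. A further 5 genes had an adjusted p under 0.1, which makes 8 in all. At an unadjusted p under 0.05 there were 1261 genes (8.42%), 570 higher (3.81%) and 691 lower (4.62%). In 1032 genes (6.89%) the libraries of the groups did not overlap, with 499 higher (3.33%) and 533 lower (3.56%). The median log2 fold change over all genes was -0.01 and its median standard error 0.39, so a typical 95% interval spanned 0.81 on either side. The fit shared 1 estimate of spread per gene over all 21 libraries. Fitted to the 7 libraries alone, whose spread was above that of control, edgeR called 0 genes (697 at an unadjusted p under 0.05). Over all 21 libraries DESeq2 called 100 genes and limma-voom 1. The number called was 1 without replicate 1 of DN-HCN2, 1 without its replicate 2, 5 without its replicate 3, 10 without replicate 1 of truncated SK3 and 1 without its replicate 2.

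The 250 bases before the transcription start of Gprc5b and Map3k1 are shown because these were the protein-coding genes called. They are from RefSeq on GRCm38.p6, read 5′ to 3′ on the strand of the gene, which is the minus strand for both. The Gprc5b window lies at chr7:118995212-118995461 and that of Map3k1 at chr13:111808994-111809243. Capitals mark GGGCGG, the GC box bound by Sp family factors, on either strand, a motif chosen after the sequences were seen.
Gprc5b: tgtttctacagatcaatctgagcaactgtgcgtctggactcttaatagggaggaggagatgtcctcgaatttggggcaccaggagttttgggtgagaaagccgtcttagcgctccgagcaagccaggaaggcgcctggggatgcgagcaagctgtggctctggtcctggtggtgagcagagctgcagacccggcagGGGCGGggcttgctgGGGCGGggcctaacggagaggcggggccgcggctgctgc
Map3k1: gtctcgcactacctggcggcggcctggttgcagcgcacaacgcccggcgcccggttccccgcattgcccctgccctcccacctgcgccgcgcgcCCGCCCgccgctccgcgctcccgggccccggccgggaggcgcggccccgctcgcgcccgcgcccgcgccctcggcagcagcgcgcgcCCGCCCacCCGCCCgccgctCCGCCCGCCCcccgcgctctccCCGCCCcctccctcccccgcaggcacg
The Gprc5b window held 2 such matches with a GC content of 62.4%, and the Map3k1 window 6, of which a pair overlap, with a GC content of 85.2%. A GC box was present in 54.9% of 14530 windows of the same length from 11348 tested genes, so its presence does not set these genes apart. Neither window held TGACG, the core of the cAMP response element (24.6% of windows), or AAGGTCA, the site of estrogen-related receptors (3.01%), on either strand. These letters describe the windows only, and no binding was measured.

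Gprc5b (chromosome 7, 118972047 to 118995211, minus strand), an orphan receptor of the family C G protein-coupled receptors, had the smallest p-value. It stood at 21.6, 18.8, 21.5 and 30.8 CPM in the 4 DN-HCN2 libraries and at 123, 96.8 and 109 CPM in the 3 truncated SK3 libraries. The groups were far from overlapping, and the lowest truncated SK3 library lay above the highest DN-HCN2 library by more than the range of either group. The level was 4.73-fold lower under DN-HCN2, a log2 fold change of -2.24 (SE 0.21, 95% interval -2.67 to -1.81, edgeR adjusted p = 8.13e-06). Apical control libraries were at 20.7, 18.4, 23.1 and 22.4 CPM, among the DN-HCN2 values. Against control, the edgeR adjusted p was 7.96e-07 for truncated SK3 and 0.876 for DN-HCN2, with the same control libraries in both contrasts. In the base the values were 17.9, 12.5 and 14.4 CPM under DN-HCN2 and 106, 117 and 83.1 under truncated SK3, a log2 fold change of -2.77 (SE 0.23, edgeR adjusted p = 1.72e-06). The difference between the regional effects was 0.53 (SE 0.30, edgeR adjusted p = 0.622). Basal control libraries, at 26.8 to 38.2 CPM, lay above all 3 basal DN-HCN2 libraries. Gprc5b kept its call without each of the 7 libraries in turn (edgeR adjusted p 8.81e-06 to 0.000189), but in the fit of the 7 libraries alone its adjusted p was 0.0857. Its last 606 bases overlap Iqck on the other strand, and Smart-seq2 reads do not record strand. Iqck was at 0 to 5.30 CPM in these libraries (log2 fold change -0.95, edgeR adjusted p = 0.847).

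The relatives of Gprc5b that were tested did not share its call. Gprc5c stood at 86.0, 84.4, 41.5 and 66.5 CPM under DN-HCN2 and at 60.9, 86.8 and 70.6 under truncated SK3, with overlapping groups (log2 fold change -0.06, edgeR adjusted p = 0.976). Gprc5a reached 17.3 and 28.1 CPM in replicates 2 and 3 of truncated SK3 and 2.47 in replicate 1, against 0.0680 to 5.81 under DN-HCN2 (log2 fold change -3.01, SE 2.05, edgeR adjusted p = 0.726). Among the 26 tested orphan and peptide receptors and peptides, Gprc5b was the member called. The list had 15 members above 0 and 11 below, with a median log2 fold change of 0.14 against -0.01 over all genes (also -0.01 without replicate 2 of DN-HCN2).

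Map3k1 (chromosome 13, 111746428 to 111808993, minus strand) encodes a kinase at the top of the JNK and ERK cascades. Its level was 30.8, 35.9, 38.7 and 59.8 CPM under DN-HCN2 and 105, 98.2 and 78.8 CPM under truncated SK3. All DN-HCN2 libraries were below all truncated SK3 libraries. The log2 fold change was -1.19 (SE 0.20, 95% interval -1.60 to -0.77, edgeR adjusted p = 0.0389). Control apex held 155, 132, 112 and 112 CPM, above every library of both constructs. Here DN-HCN2 was called against control (edgeR adjusted p = 7.49e-05, with shared controls). Truncated SK3 was not (edgeR adjusted p = 0.563), though all its libraries lay below control. In the base Map3k1 was at 26.2, 25.5 and 28.7 CPM under DN-HCN2 and 119, 97.4 and 87.2 under truncated SK3. The log2 fold change there was -1.91 (SE 0.22, edgeR adjusted p = 0.000241). The regional effects differed by 0.73 (SE 0.30, edgeR adjusted p = 0.471). The apical call was near the threshold. It held without replicate 4 of DN-HCN2 (edgeR adjusted p = 0.00183) and without replicate 3 of truncated SK3 (0.0443), and was lost without each of the other 5 libraries (0.0630 to 0.232). It was also lost with a correction for GC content and transcript length (log2 fold change -0.92, edgeR adjusted p = 0.336). A related kinase gene, Map3k4, had overlapping groups (log2 fold change -0.23, edgeR adjusted p = 0.90).

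Gm4184 is a single-exon pseudogene record in RefSeq (chromosome 10, 89878250 to 89878573, GRCm38.p6) that carries Sec61g as a synonym, and it was not matched in GENCODE M21. Its counts were 300, 394, 102 and 142 under DN-HCN2 and 5, 11 and 17 under truncated SK3, or 19.6, 26.8, 8.46 and 10.6 CPM against 0.440, 0.790 and 1.43 CPM. Every DN-HCN2 library was above every truncated SK3 library, and apical control was at 0.542 to 1.39 CPM. The log2 fold change was 4.19 (SE 0.68, 95% interval 2.77 to 5.61, edgeR adjusted p = 0.0354) and in the base 4.35 (SE 0.70, edgeR adjusted p = 0.00939). Sec61g itself, the gene for a small subunit of the protein-conducting channel of the endoplasmic reticulum, was at 75.5 to 133 CPM under DN-HCN2 and 77.1 to 123 under truncated SK3 (log2 fold change 0.02, edgeR adjusted p = 0.994). Sec61g shares 20.5% of its 50-base stretches with other transcripts, and how the counter placed reads that match more than 1 locus is not given in the sources used here, so the source of the Gm4184 reads is uncertain. Its call was lost without replicates 1 or 2 of either group (edgeR adjusted p 0.0799 to 0.232).

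The 7 genes next in order of p missed the threshold, with edgeR adjusted p = 0.0715 for the first 5 and 0.124 for the last 2. In each of them the apical libraries of the groups did not overlap, which the order by p favours. Psmc3ip, a cofactor of meiotic recombination, was at 2.35, 1.97, 2.99 and 1.94 CPM under DN-HCN2 and 23.9, 10.8 and 19.3 CPM under truncated SK3 (log2 fold change -2.96, SE 0.54). It repeated the layout of Gprc5b, with control at 1.00 to 2.51 CPM and basal values of 1.48 to 5.16 under DN-HCN2 against 13.1 to 24.0 under truncated SK3. It overlaps Mlx by 385 bases on the other strand, and Mlx differed by -0.22 (SE 0.18, edgeR adjusted p = 0.780). Klhl10, an adaptor of cullin ubiquitin ligases known from the testis, was at 48.9, 58.6, 77.3 and 45.3 CPM against 103, 171 and 140 CPM (log2 fold change -1.26, SE 0.24). Its control values, 107 to 139 CPM, sat with truncated SK3.

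Nptx2 encodes a secreted pentraxin that gathers AMPA receptors at synapses and is induced by activity. It was at 9.73, 3.54, 3.82 and 6.05 CPM under DN-HCN2 and at 0.352, 0.215 and 0.252 CPM under truncated SK3. All truncated SK3 libraries were near 0, and control apex stood at 6.39 to 18.6 CPM, with 1 DN-HCN2 library within that range. The apical log2 fold change of 4.36 (SE 0.83) was followed in the base by one of 3.04 (SE 0.79, edgeR adjusted p = 0.0876). Nptx1, a related pentraxin, ranged from 0 to 13.6 CPM under DN-HCN2 and from 0.0880 to 11.5 under truncated SK3, with no separation of the groups. Pygm, the muscle form of glycogen phosphorylase, was at 240, 147, 96.1 and 125 CPM under DN-HCN2 and 73.1, 29.9 and 39.5 CPM under truncated SK3 (log2 fold change 1.68, SE 0.32). Control, at 210 to 260 CPM, lay above 3 of the 4 DN-HCN2 libraries. The brain and liver forms, Pygb and Pygl, had overlapping groups, with log2 fold changes of -0.29 and -0.31.

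Kremen1, a receptor for the Wnt antagonist Dickkopf, was at 35.3, 23.8, 28.9 and 30.7 CPM under DN-HCN2 and 46.1, 220 and 102 CPM under truncated SK3. The difference came mostly from replicates 2 and 3 of truncated SK3, and in the base the groups overlapped (log2 fold change -2.05, SE 0.39, in the apex against 0.07, SE 0.42, in the base). Its edgeR adjusted p was 0.00742 without replicate 1 of truncated SK3 and 0.581 without replicate 2 (log2 fold change -1.33). The regional effects differed by -2.11 (edgeR adjusted p = 0.328). Replicates 2 and 3 of truncated SK3 also had the highest values of the supporting cell gene Lfng, at 59.8 and 16.9 CPM against 1.82 to 3.27 under DN-HCN2 (log2 fold change -3.47, edgeR adjusted p = 0.271). In these libraries the median of the supporting cell list stood 1.13 and 1.64 above control on the log2 scale, against 0.33 in replicate 1 of truncated SK3 and 0.01 to 0.76 under DN-HCN2. Lfng was not typical of the list, in which 9 of the 18 markers had an estimate above 0 and 9 below. The median log2 fold change was -0.19, and -0.58 to 0.17 without 1 library at a time. The summed level of the 18 markers overlapped, at 6365 to 8648 CPM under truncated SK3 and 5807 to 15025 CPM under DN-HCN2. None of the 18 was at 0 throughout a group, and their part in the Kremen1 values was not tested. Sema4a, a transmembrane semaphorin, had 0 counts in all 4 DN-HCN2 libraries and stood at 1.41, 3.16 and 3.62 CPM under truncated SK3 and 0.851 to 5.28 CPM in control. Against a floor of 3 counts per library it was at least 12.5-fold lower under DN-HCN2, but basal DN-HCN2 libraries held up to 4.22 CPM. Arhgef10, a guanine nucleotide exchange factor, was at 9.14, 12.8, 14.5 and 6.72 CPM against 33.3, 26.9 and 21.6 CPM (log2 fold change -1.34, SE 0.27), and it was called in the base (-1.58, edgeR adjusted p = 0.0332).

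**Figure D1:**
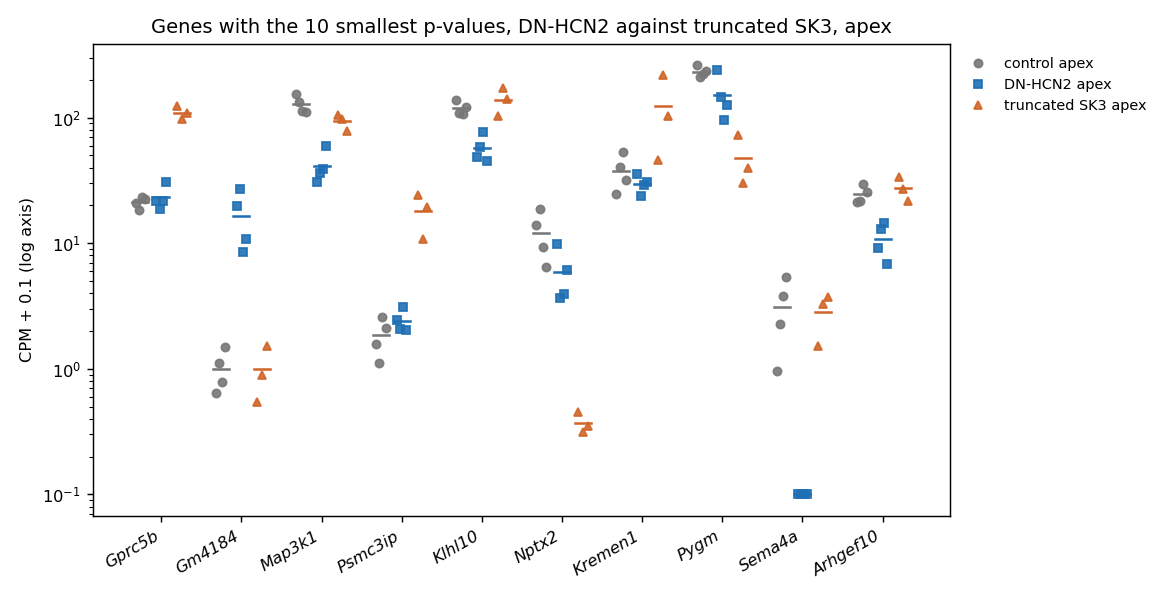
CPM + 0.1 on a log axis for the 10 genes with the smallest apical p-values, with 1 point per library and a short bar at the group mean, for control, DN-HCN2 and truncated SK3 apex. The control mean is nearer the DN-HCN2 mean for Gprc5b, Psmc3ip, Nptx2, Kremen1 and Pygm, and nearer the truncated SK3 mean for the other 5 genes. Nearer does not mean equal, as every control library of Map3k1 lies above both constructs.

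Placed against apical control, these 10 genes divided evenly. The control mean was nearer the DN-HCN2 mean for 5 of them and nearer the truncated SK3 mean for the other 5, and over the 30 smallest p-values the split was 15 and 15. Separate contrasts with control, which share the control libraries, called 30 genes for DN-HCN2 (0.200%) and 38 for truncated SK3 (0.254%). Of the 3 genes called between the constructs, Map3k1 and Gm4184 were called for DN-HCN2 against control and Gprc5b for truncated SK3 against control.

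The basal libraries measured the same contrast in neurons of the other end of the cochlea. There edgeR called 36 genes (0.241%), 10 higher (0.0668%) and 26 lower (0.174%) under DN-HCN2, and all 3 apical calls were among them in the same direction. The tests in the 2 regions were not fully independent, as they shared the estimate of spread per gene. Whether apical and basal libraries came from the same animals was not given. Of the 10 genes with the smallest apical p, 9 had the same sign in the base, the exception being Kremen1. The same sign was found for 23 of the top 30 (76.7%), for 809 of the 1261 genes with an unadjusted p under 0.05 (64.2%) and for 53.2% of all genes tested. Of the 36 basal calls, 29 had the same sign in the apex. Kcnj10, the inward-rectifier potassium channel gene of glia, was one of them, at 63.3, 143, 150 and 128 CPM under DN-HCN2 apex and 282, 210 and 183 CPM under truncated SK3 apex. Its groups did not overlap, and the apical log2 fold change was -0.90 (SE 0.26) with an edgeR adjusted p of 0.360. In the base it was -1.54 (edgeR adjusted p = 0.0271). Lin7c, a scaffold gene of the presynaptic terminal, was at 53.9, 53.9, 58.6 and 25.6 CPM against 90.8, 78.1 and 84.5 CPM in the apex (-0.82, edgeR adjusted p = 0.369) and differed by -1.30 in the base (edgeR adjusted p = 0.0408). No gene was called by edgeR for a difference between the regional effects, with 1353 (9.04%) at an unadjusted p under 0.05. DESeq2 called 126 genes in that test and limma-voom 0.

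**Figure D2:**
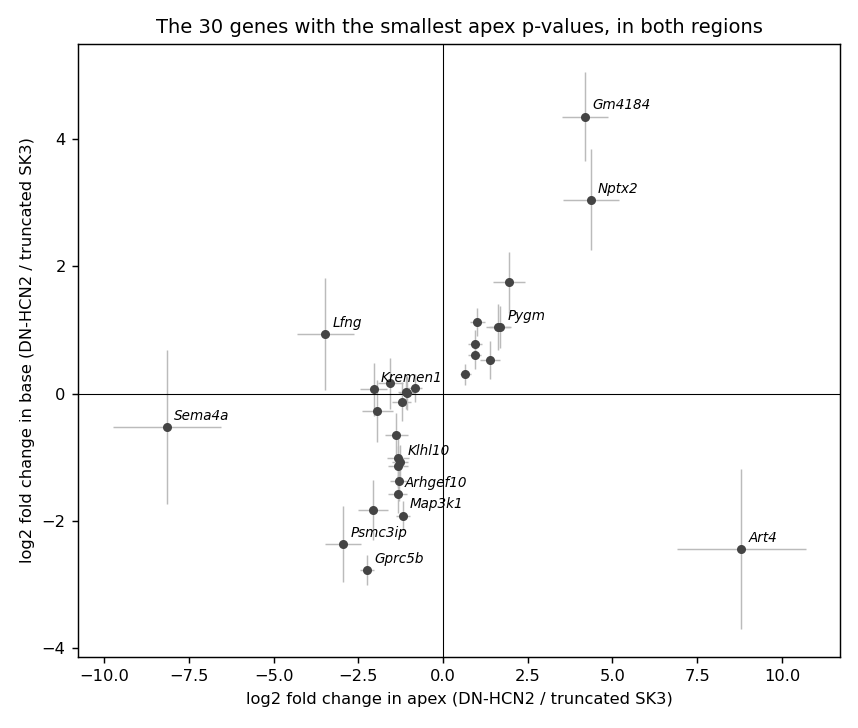
Log2 fold change of DN-HCN2 over truncated SK3 in the apex (x) and the base (y) for the 30 genes with the smallest apical p-values, with bars of 1 standard error. Of the 30 points, 23 lie in the quadrants where both regions have the same sign, with Gprc5b, Map3k1 and Gm4184 far from 0 on both axes.

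The genes of the targeted channels did not pass the test. Hcn2 (chromosome 10) stood at 14.6, 31.7, 122 and 80.7 CPM under DN-HCN2 and at 6.43, 53.3 and 63.4 CPM under truncated SK3. Values varied widely within both groups and overlapped, with a log2 fold change of 0.60 (SE 0.88, edgeR adjusted p = 0.924). Kcnn3, which encodes SK3, was at most 1.94 CPM in any of the 7 libraries (log2 fold change -0.86, SE 1.64, edgeR adjusted p = 0.945). No insert sequence is given, so counts from a virus and from the mouse gene cannot be told apart and the construct itself was not checked. Hcn3 and Hcn4 differed by 0.89 (SE 0.64) and 0.37 (SE 0.44), and the accessory subunit gene Pex5l by 0.20 (SE 0.35). For Pex5l the sign turned without replicate 1 of truncated SK3 (-0.16).

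Among 10 tested genes of calcium-activated potassium channels, none was called and 7 had an estimate above 0 (median 0.33, against -0.46 in the base). The list median relative to control was -0.07 to 0.11 under DN-HCN2 and -0.47 to -0.35 under truncated SK3, without overlap. Without replicate 2 of DN-HCN2 the median log2 fold change was 0.17. Kcnmb2, a beta subunit of the BK channel, was at 19.2, 9.05, 10.6 and 11 CPM under DN-HCN2 and 8.36, 6.18 and 2.52 CPM under truncated SK3. The groups did not overlap, and the log2 fold change of 1.13 (SE 0.44) had an edgeR adjusted p of 0.509. Kcnmb4, another beta subunit, was at 11.3 to 26.7 CPM against 8.91 to 14.6 CPM (0.80, SE 0.46). Kcnn2, the SK2 gene, was at 35.9, 29.9, 32.9 and 36.1 CPM against 27.5, 25.6 and 27.8 CPM, a small difference without overlap (0.32, SE 0.27, edgeR adjusted p = 0.80). Kcnn1 (0.34, SE 0.37) and the BK pore gene Kcnma1 (0.18, SE 0.32) had overlapping groups. The intervals of Kcnn2 and Kcnma1 reached from -0.24 to 0.89 and from -0.48 to 0.85, so changes within them were not excluded. These unadjusted intervals are not the limit of detection, and a larger change could also go uncalled after adjustment over all genes.

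**Figure D3:**
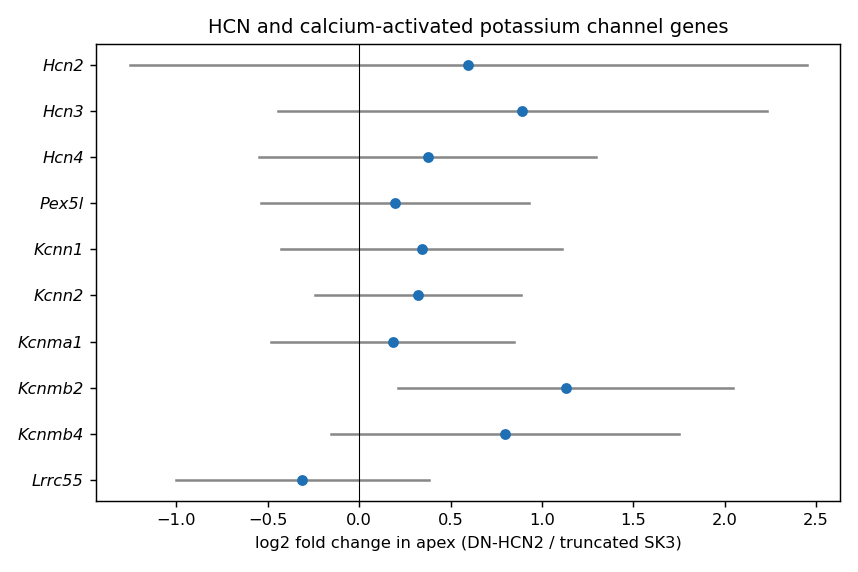
Log2 fold change of DN-HCN2 over truncated SK3 in the apex with its 95% interval for 10 HCN and calcium-activated potassium channel genes that average 5 CPM or more in 1 of the groups. The interval crosses 0 for all but Kcnmb2, whose estimate is 1.13.

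Respiratory chain transcripts from the nuclear genome leaned towards DN-HCN2 without a single call. Of 56 tested, 54 had an estimate above 0, with a median log2 fold change of 0.31 against -0.01 over all genes. At an unadjusted p under 0.05 there were 12 (21.4%, against 8.42% of all genes), all higher, and in 11 (19.6%, against 6.89%) the groups did not overlap. Atp5g1, which encodes subunit c of ATP synthase, was at 925, 993, 1352 and 951 CPM under DN-HCN2 and 399, 595 and 815 CPM under truncated SK3 (log2 fold change 0.81, SE 0.21, edgeR adjusted p = 0.324). Sdhb (0.39) and Cycs (0.49), named after their values were seen, were next by p in that list. The median of the list relative to control was 0.02, 0.17, 0.68 and 0.25 in the DN-HCN2 libraries and -0.13, -0.23 and 0.22 in the truncated SK3 libraries, so the groups overlapped. Summed neuron markers were at 15494, 16184, 21511 and 18384 CPM in the same DN-HCN2 libraries and 13723, 14513 and 17166 CPM in the truncated SK3 libraries. The 2 libraries lowest in neuron markers, replicates 1 and 2 of truncated SK3, were also lowest for the list, and the highest, replicate 3 of DN-HCN2, was highest in both. The part of the neuron markers in the respiratory chain values was not tested. In the base the median was -0.23, the opposite sign, and the difference between regions was not tested for the list. With the correction for GC content and transcript length the median was 0.28, that of all genes 0.07, and 4 members kept an unadjusted p under 0.05. In the fit of the 7 libraries alone that number was 7, and with limma-voom 23. It was 2 without replicate 2 of truncated SK3, 34 without its replicate 3, 22 without replicate 1 of DN-HCN2 and 7 without its replicate 3. The median was 0.52 without replicate 3 of truncated SK3 and 0.20 without replicate 3 of DN-HCN2.

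Subunits of the proteasome, the complex that degrades ubiquitin-tagged proteins, showed a smaller lean. Of 31 tested, 30 had an estimate above 0, with a median of 0.20 and none called. The list median relative to control was 0.08, 0.13, 0.16 and 0.19 under DN-HCN2 and -0.10, -0.18 and 0.04 under truncated SK3, without overlap. Psma1 was at 241, 273, 269 and 287 CPM against 210, 186 and 220 CPM (log2 fold change 0.38, SE 0.13, edgeR adjusted p = 0.448). Its basal log2 fold change was -0.10, and the median of the list in the base was -0.02. At an unadjusted p under 0.05 there were 7 members (22.6%, against 8.42% of all genes), and 2 with the correction for GC content and transcript length or in the fit of the 7 libraries alone. That number was 1 without replicate 2 of truncated SK3, 4 without replicate 3 of DN-HCN2 and 3 without its replicate 4.

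Neuronal lists gave mixed pictures. Of 20 spiral ganglion neuron markers, 15 had an estimate above 0 (median 0.22) and none was called. At an unadjusted p under 0.05 there were 5 (25%, against 8.42% of all genes), all higher. In 4 of the markers (20%, against 6.89%) the groups did not overlap. The median was 0.36 and 0.38 without replicate 1 of DN-HCN2 and replicate 3 of truncated SK3, and 0.13 without replicate 3 of DN-HCN2 or replicate 1 of truncated SK3. Uchl1, an abundant neuronal ubiquitin hydrolase, was at 504, 450, 507 and 378 CPM under DN-HCN2 and 300, 295 and 345 CPM under truncated SK3, with no overlap (log2 fold change 0.55, SE 0.16, edgeR adjusted p = 0.360). Of 34 genes of the axonal cytoskeleton, 28 had an estimate above 0 (median 0.22, against -0.18 in the base), and 7 higher and 2 lower had an unadjusted p under 0.05 (26.5%, against 8.42% of all genes). Those 9 became 3 without replicate 2 of truncated SK3 and 5 without replicate 1 or replicate 2 of DN-HCN2. The cytoskeleton list shares the gene of its largest estimate, 1.29, with the neuron markers. Csrp1, a LIM-domain protein gene in that list, went the other way, at 23.2, 32.7, 26.7 and 15.5 CPM under DN-HCN2 and 61.5, 79.5 and 80.2 CPM under truncated SK3. Both constructs were above control, which was at 3.24 to 10.1 CPM, and the groups did not overlap (-1.59, SE 0.49, edgeR adjusted p = 0.383). Rxrg, a retinoid receptor gene among the type I subtype markers, was at 12.1 to 23.1 CPM against 0.757 to 9.42 CPM (1.66, SE 0.60, edgeR adjusted p = 0.474). It was not typical of that list, in which 6 of 14 genes had an estimate above 0 and 8 below (median -0.11, and 0.04 without replicate 4 of DN-HCN2).

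Synaptic lists showed no shared direction. Of 39 genes of the synaptic vesicle cycle, 20 had an estimate above 0 and 19 below (median 0.01). Syt4, a synaptotagmin regulated by activity, was at 135, 143, 125 and 171 CPM under DN-HCN2 and 240, 193 and 191 CPM under truncated SK3, without overlap (log2 fold change -0.53, SE 0.19, edgeR adjusted p = 0.480). Presynaptic active zone genes had 9 above and 14 below (median -0.11, and 0.01 without replicate 1 of DN-HCN2 or replicate 3 of truncated SK3). The 4 with an unadjusted p under 0.05 (17.4%, against 8.42% of all genes), Lin7c among them, were all lower. Genes of glutamate receptors and the postsynaptic density had a median of 0.00 over 37 tested, and synaptic adhesion genes one of -0.09 over 60. In the adhesion list Adgrl2, a latrophilin gene, was at 9.54 to 21.5 CPM against 20.2 to 42.0 CPM (-1.08, SE 0.32, edgeR adjusted p = 0.369). Axon guidance genes had a median of 0.00 over 61, and Sema4a was the member with the smallest p.

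Activity-regulated lists were likewise split. Of 33 immediate early genes, 17 had an estimate above 0 and 16 below (median 0.01), and none was called. Npas4, a transcription factor induced by calcium entry, was at 0.718, 0, 0.664 and 0.224 CPM under DN-HCN2 and had 0 counts in all 3 truncated SK3 libraries. That difference was at the limit of detection (edgeR adjusted p = 0.509). The DN-HCN2 mean was 1.65-fold a floor of 3 counts per library, but replicates 2 and 4, at 0 and 3 counts, were not above it. Late activity-regulated genes had 13 above and 10 below, with Nptx2 at the head. The 52 tested genes of calcium and cAMP signalling to CREB had a median of -0.13 and none at an unadjusted p under 0.05. Among coactivators of nuclear receptors, Ncoa3 was at 34.9, 40.7, 35.5 and 43.8 CPM under DN-HCN2 and 55.6, 66.1 and 64.4 CPM under truncated SK3. The groups did not overlap, and control, at 57.4 to 76.2 CPM, sat with truncated SK3 (-0.68, SE 0.21, edgeR adjusted p = 0.381).

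Interferon-response genes leaned the other way. All 26 tested had an estimate below 0, with a median of -0.86, and none was called. At an unadjusted p under 0.05 there were 7 (26.9%, against 8.42% of all genes), all lower. The groups did not overlap in 3 (11.5%, against 6.89%). Ifi35 was at 12.1, 8.50, 3.48 and 3.88 CPM under DN-HCN2 and 12.4, 41.9 and 18.3 CPM under truncated SK3 (log2 fold change -1.79, SE 0.50, edgeR adjusted p = 0.355). The list median relative to control was -0.68, -0.19, -1.59 and -0.52 under DN-HCN2 and 0.04, 1.09 and -1.01 under truncated SK3. Replicate 2 of truncated SK3 was the highest library and replicate 3 lay among the DN-HCN2 values, so the groups overlapped. Without replicate 2 of truncated SK3 the median was -0.23, 18 of 26 estimates were below 0 and 1 had an unadjusted p under 0.05. Without replicate 3 of DN-HCN2 the median was -0.86 and 3 had an unadjusted p under 0.05. In the base the median was -0.47. Markers of macrophages and of endothelial cells and pericytes also had estimates mostly below 0. Macrophage markers had 13 of 15 estimates below 0 and summed to 6.20 to 29.3 CPM under DN-HCN2 and 11.5 to 58.0 CPM under truncated SK3. Endothelial and pericyte markers had 10 of 12 below 0 and reached 372 CPM in replicate 1 of truncated SK3, 263 CPM of it from the pericyte gene Rgs5, against 18.9 to 53.6 CPM in the other 6 libraries. In replicate 2 of truncated SK3, the highest for the interferon list, macrophage markers summed to 35.1 CPM and endothelial and pericyte markers to 28.8 CPM. Relative to control, the macrophage list median was -0.76, -1.51 and -4.07 in replicates 1 to 3 of truncated SK3. Under DN-HCN2 it was -4.59 to -1.79. In the base the median log2 fold change of the macrophage list was 3.46, against -0.47 for the interferon list. The part of macrophage, endothelial and pericyte markers in the interferon values was not tested. Cdkn1a, a cell cycle inhibitor in the stress list, was at 122, 80.2, 60.0 and 65.1 CPM against 143, 140 and 160 CPM (-0.85, SE 0.29, edgeR adjusted p = 0.437).

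**Figure D4:**
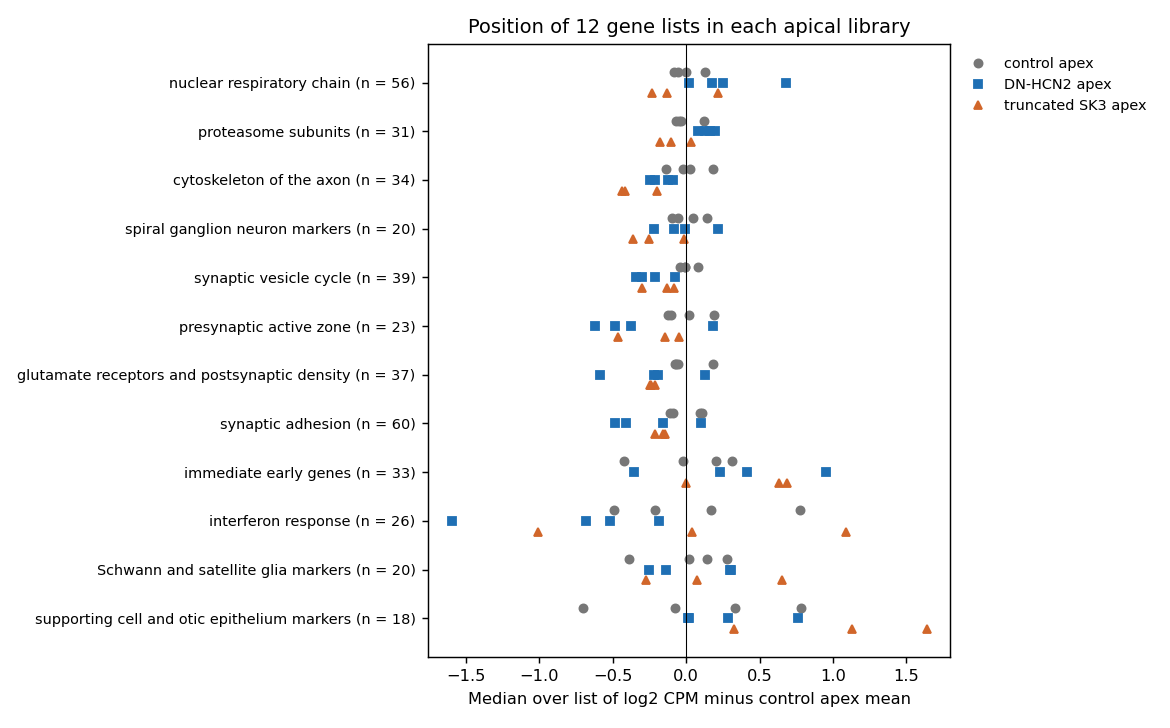
Median over the genes of a list of log2 CPM minus the mean of apical control, with 1 point per library, for 12 lists in control, DN-HCN2 and truncated SK3 apex. The constructs are apart without overlap only for the proteasome subunits among these 12, at 0.08 to 0.19 under DN-HCN2 and -0.18 to 0.04 under truncated SK3.

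Schwann and satellite glia markers did not share a direction in the apex. Of the 20 tested, 8 had an estimate above 0 and 12 below (median -0.09), and Erbb3, the neuregulin receptor of Schwann cells, was at 1.72 to 14.6 CPM under DN-HCN2 and 8.67 to 33.4 CPM under truncated SK3 (-1.96, SE 0.68, edgeR adjusted p = 0.450). In the base the list median was -1.09, and the difference between regions was not tested for the list. Red blood cell markers were uneven among libraries, at 1936 CPM in replicate 2 of DN-HCN2 and 4152 CPM in replicate 3 of truncated SK3 against 17.7 to 343 in the other 5. Y-linked Ddx3y was at 10.8 to 50.2 CPM under DN-HCN2 and 40.1 to 98.0 under truncated SK3, detected in all 7 libraries with overlapping levels.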

How the data were processed

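Polyadenylated RNA from about 50 neurons per library was made into cDNA by Smart-seq2, per the labels' protocols. The authors deposited 1 table of raw read counts per gene symbol. The submitters' processing notes list Trimmomatic, HISAT2, DESeq2, GRCm38 and mm10 with no versions, and the counter and its annotation are not given in the sources used here. Here, genes were filtered with filterByExpr, scaled with TMM and fitted by edgeR 4.0.16 in R 4.3.3 (robust quasi-likelihood, all 21 libraries, 1 mean per group). P-values were two-sided and adjusted by Benjamini-Hochberg over 14968 genes, and calls were made at FDR 0.05. Alternatives included limma 3.58.1 (voom) and DESeq2 1.42.0. The code was tested on simulated data. Symbols were matched to GENCODE M21 (14455 genes, 96.6%). Mitochondrially encoded genes were not analysed here.

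Genes were named as the members of both channel lists, called genes averaging 10 CPM or more, the called members of each of 38 lists (where none, its smallest p), the 10 smallest p-values and genes called in both regions. Others were named after their values were seen. The members and lists were chosen with earlier results of these data known. Some genes that the rule names are not reported here.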

Additional observations from a re-analysis of the deposited data

Results flagged for a closer look

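In each apical group of 4 libraries, the library with the highest or lowest value was compared with the range of the group by Dixon's ratio, at its 95% limit. Of 132 groups examined, 18 (13.6%) had a library that stood apart. The limit assumes normally distributed values, and CPM were used without a log. A gene with counts in 1 library of a group stands apart by construction, so this share cannot be compared with chance. Groups of 3, truncated SK3 among them, were not examined.

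Among marker sums, supporting cell markers were at 15025 CPM in replicate 1 of DN-HCN2, against 5807 to 7169 in its other libraries, and red blood cell markers at 1936 CPM in replicate 2, against 17.7 to 80.7. In control apex, replicate 4 was high in macrophage markers (541 CPM, against 45.8 to 69.7), in endothelial and pericyte markers (205 CPM) and in Rgs5 (116 CPM), and low in type I subtype markers (5711 CPM). Replicate 1 of control was high in spiral ganglion neuron markers (18903 CPM) and Psma1 (284 CPM).

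Within DN-HCN2, Atp5g1 was high in replicate 3 (1352 CPM, against 925 to 993) and Lin7c low in replicate 4 (25.6 CPM, against 53.9 to 58.6). Fgf13, which binds sodium channels, was at 10.7 CPM in replicate 2 (1.42 to 2.65 in the others). At low levels, Slc4a1 was at 3.61 CPM (53 counts), Kcnn4 at 0.953 CPM (14 counts) and Grm4 at 0.0680 CPM (1 count) in replicate 2, Cenpe at 1.31 CPM (20 counts) in replicate 1 and Adgre1 at 0.0829 CPM (1 count) in replicate 3. In control, Kcne2 was at 0.0678 CPM (1 count) in replicate 3 and Lrrc26 at 1.00 CPM (13 counts) in replicate 2.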

How the results depend on the processing

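The apical count of 3 calls stayed at 3 with RLE size factors, with no low-count filter and with a filter of 10 CPM in 3 libraries, and was 2 with the correction for GC content and length. It was 100 with DESeq2 (52 higher, 48 lower, the 3 genes included), 1 with limma-voom and 0 in the fit of the 7 libraries alone. It was 1 without genes that share 20% or more of their 50-base stretches or have no match in GENCODE M21. That setting dropped Gm4184, which had no match, and left Map3k1 at an edgeR adjusted p of 0.0588. Without 1 library at a time the count ranged from 1 to 10. With the replicate number as a block it was 1 over all libraries and 0 over the 7 alone. Same-numbered libraries deviated with correlations of 0.02, -0.11 and 0.25, so the numbers were not taken as pairs.

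The basal count of 36 became 561 with DESeq2, 20 with limma-voom, 7 in the fit of the groups alone, 11 and 19 with the block (all libraries and the groups alone) and 7 to 109 without 1 library. The count of 0 for the difference between regions became 126 with DESeq2 and 0 to 3 without 1 library. For DN-HCN2 against control, 30 became 272 with DESeq2, 220 with limma-voom and 6 with the block in the groups alone. It was 8 without genes that share sequence or lack a match and 16 to 86 without 1 library. For truncated SK3 against control, 38 became 176, 121, 8, 22 and 19 to 62 under the same settings.

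Signs of genes not called turned as follows. With limma-voom, log2 fold changes were -1.81 for Kcne2, 1.46 for Kcnn3 and -0.44 for Kcnn4. With the GC and length correction Atp2b1 was 0.00765. Without 1 library at a time, the estimates ranged from -0.16 to 0.46 for Pex5l, from -0.14 to 0.44 for Kcnma1, from -2.51 to 0.95 for Lrrc52, from -0.61 to 0.16 for Lrrc55 and from -1.72 to 6.59 for Slc4a1. The cause was not tested. Medians of lists near 0 also turned without 1 library, from -0.19 to 0.17 for Schwann and satellite glia markers, -0.18 to 0.05 for synaptic adhesion, -0.18 to 0.11 for axon guidance, -0.10 to 0.12 for the synaptic vesicle cycle, -0.11 to 0.04 for glutamate receptors and -0.19 to 0.28 for immediate early genes. Over the 55 named genes and their alternatives, 861 values kept direction and side of the threshold, 15 passed it newly, 21 lost it and 9 turned. Most of these genes were not called, and one that stayed uncalled with the same sign counts as kept. Among the called genes, Gprc5b kept its call in 15 of 17 alternatives, Gm4184 in 8 of 16 and Map3k1 in 6 of 17.

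The depth of 10727194 to 15138780 counts limits mainly genes under 1 CPM. With 4 and 3 libraries, the median half-width of the 95% interval of a log2 fold change was 0.81. Differences within that width, and some beyond it after adjustment over all genes, could not be detected for a typical gene.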

Other observations

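Some lists not described above had values of note, and none of their members was called by edgeR. Of 20 GABA and acetylcholine receptor genes, 14 had an estimate above 0 and 5 below, with a median log2 fold change of 0.38 (0.17 and 0.25 without replicates 2 and 3 of DN-HCN2). The median of the list relative to control was -0.48 to 0.14 in the DN-HCN2 libraries and -0.59 to -0.55 in the truncated SK3 libraries, without overlap. Many members were at low levels, and 7 of the 20 passed the filter of 10 CPM in 3 libraries (median 0.25). The median standard error of the list was 1.46, against 0.39 over all genes. For most of the lists examined, library medians overlapped between the groups. Myelin and cholesterol synthesis genes had 18 above and 8 below (median 0.15), and their library medians did not overlap either, at -0.05 to 0.05 and -0.17 to -0.13. Their median log2 fold change was 0.09 without replicate 4 of DN-HCN2, 0.07 without replicate 3 of truncated SK3 and -0.78 in the base. Mvk, the mevalonate kinase gene, had the smallest p among them, at 28.0 to 50.7 CPM under DN-HCN2 and 19.6 to 31.9 CPM under truncated SK3 (log2 fold change 0.69, SE 0.32, edgeR adjusted p = 0.572).

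Of 16 genes of neurotrophins and their receptors, 3 had an estimate above 0 and 13 below (median -0.33), with overlapping library medians. Without replicate 2 of truncated SK3 that median was 0.05, with 8 genes above and 8 below. Leaving out other libraries gave -0.61 (replicate 1 of truncated SK3), -0.49 (its replicate 3), -0.55 (replicate 1 of DN-HCN2) and -0.52 (its replicate 3). Among 45 other potassium channel genes the split was 19 above and 26 below. Fgf13 was at 1.42 to 10.7 CPM under DN-HCN2, with 0 counts in replicates 1 and 2 and 0.168 CPM in replicate 3 of truncated SK3 (edgeR adjusted p = 0.294), and at 0.678 to 3.41 CPM in control. Unc13b, a priming factor of synaptic vesicles named after its values were seen, was at 14.7, 14.5, 11.9 and 12.2 CPM under DN-HCN2 and 24.8, 25.9 and 40.7 CPM under truncated SK3 (log2 fold change -1.19, SE 0.43, edgeR adjusted p = 0.476). Its basal log2 fold change was 0.81.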
